A study of Mus musculus with 40 samples.

Results

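Glyceroneogenesis and pyruvate use in the subcutaneous white fat of mice (sWAT, from beneath the skin) are described here through 5 genes chosen by symbol: Pck1, Pcx, Gpd1, Aqp7 and Pdk4. Each was 1 row of a count table of 34843 gene symbols, and all 5 were among the 15807 genes with enough counts to be tested. RNA was measured in 40 libraries, 8 in each of 5 groups. The groups were mice on a high-fat diet (HFD) with tirzepatide, mice on HFD with semaglutide, mice moved from HFD back to a normal diet (diet switch), mice on HFD, and mice fed the normal diet (ND). Both drugs are peptide analogs of gut hormones (incretins): semaglutide is an agonist of the GLP-1 receptor, whereas tirzepatide acts on the GIP and GLP-1 receptors. All groups other than ND thus share feeding on HFD, at the time of sampling or, for the diet switch, before it. The labels give no strain, sex, age, dose or treatment time, and do not say whether the diet-switch mice had received a drug, although the series title places the dietary intervention after incretin treatment. Nothing in the labels says that the samples of a group came from separate animals, and a p-value here therefore reflects only how much these samples vary. The study asked which genes stay altered and which return under incretin analogs.

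Fat cells store fatty acids as triglyceride, and each triglyceride needs a glycerol 3-phosphate backbone. Because white adipocytes have little glycerol kinase, they build this backbone from glucose by glycolysis or from pyruvate, lactate and amino acids by glyceroneogenesis. In glyceroneogenesis pyruvate carboxylase (Pcx) turns pyruvate into oxaloacetate in the mitochondrion, cytosolic phosphoenolpyruvate carboxykinase (Pck1) makes phosphoenolpyruvate from oxaloacetate, and glycerol-3-phosphate dehydrogenase (Gpd1) forms glycerol 3-phosphate from dihydroxyacetone phosphate. Pcx also feeds citrate export for fatty acid synthesis, so it is a lipogenic enzyme in fat as well. Aquaporin 7 (Aqp7) is the channel through which glycerol leaves the adipocyte after lipolysis. Pyruvate dehydrogenase kinase 4 (Pdk4) phosphorylates and inhibits the pyruvate dehydrogenase complex and so spares pyruvate from oxidation.

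In GENCODE M21, on GRCm38 (mm10), the 5 protein-coding genes lie on 5 chromosomes. Pck1 lies at chr2:173153048-173159273 on the plus strand with up to 10 exons, Pcx at chr19:4510472-4621752 on the plus strand with up to 21, and Gpd1 at chr15:99717515-99725005 on the plus strand with up to 8. Aqp7 lies at chr4:41033074-41048139 on the minus strand with up to 8 exons, and Pdk4 at chr6:5483351-5496309 on the minus strand with up to 11. Lrfn4 lies within Pcx on the opposite strand and the antisense gene Gm16537 overlaps Gpd1, but the table holds 281 and 19 counts for them over all 40 libraries, and whether the counting used strand is not given in the sources used here.

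RefSeq promoter windows of the GRCm38.p6 build, 250 bases before to 50 bases after a start, were found for 4 of the 5 genes, with 6 windows in all. The window of Pck1, the first of the 2 windows of Pcx and the first of the 2 windows of Aqp7 are printed. The window of Pdk4 and the second windows of Pcx and Aqp7 were searched too but are not printed. Those printed cover chr2:173152823-173153122 on the plus strand, chr19:4510222-4510521 on the plus strand and chr4:41048087-41048386 on the minus strand. Capitals mark the motif matches found on either strand.
Pck1: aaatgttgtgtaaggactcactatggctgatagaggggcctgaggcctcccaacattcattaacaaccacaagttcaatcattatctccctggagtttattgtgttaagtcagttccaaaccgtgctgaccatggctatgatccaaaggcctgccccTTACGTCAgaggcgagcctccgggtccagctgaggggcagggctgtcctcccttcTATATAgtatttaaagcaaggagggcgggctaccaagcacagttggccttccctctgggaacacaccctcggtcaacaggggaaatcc
Pcx: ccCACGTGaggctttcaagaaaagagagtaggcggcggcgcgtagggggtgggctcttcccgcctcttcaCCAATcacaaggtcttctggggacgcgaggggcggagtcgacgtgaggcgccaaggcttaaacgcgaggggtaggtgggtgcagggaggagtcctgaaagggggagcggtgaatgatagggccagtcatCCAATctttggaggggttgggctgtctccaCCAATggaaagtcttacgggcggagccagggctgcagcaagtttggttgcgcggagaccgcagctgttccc
Aqp7: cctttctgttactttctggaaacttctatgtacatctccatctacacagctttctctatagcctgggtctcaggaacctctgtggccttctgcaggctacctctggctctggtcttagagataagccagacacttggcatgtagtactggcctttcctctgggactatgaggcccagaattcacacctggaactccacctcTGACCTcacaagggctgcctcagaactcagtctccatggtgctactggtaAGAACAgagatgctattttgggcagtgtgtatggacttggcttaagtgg
In Pck1 the capitals are TTACGTCA, letters known as the cAMP response element of this gene, at -93 to -86 from the start, and TATATA at -38 to -33. In Pcx they are the E-box CACGTG at -248 to -243 and CCAAT at -180 to -176, -51 to -47 and -21 to -17. In Aqp7 they are TGACCT, which reads as the nuclear receptor binding motif AGGTCA on the other strand, at -49 to -44, and AGAACA, which reads as the glucocorticoid binding motif TGTTCT, at 2 to 7. Of 32544 mouse promoter windows of the same length, 0.5% hold TTACGTCA, 5.44% TATATA, 7.17% CACGTG, 37.36% CCAAT, 16.25% AGGTCA and 18.92% TGTTCT on either strand. TGTTTAC, the core bound by FOXO factors, and TATAAA were also searched for, and are in 3.66% and 13.57% of windows and in none of these 6. The Pck1 element was chosen from knowledge of that promoter, and a match is a description of letters, not of a bound site.

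Totals ran from 2115471 to 7445548 counts per library (median 3765319.5), with 19900 to 23774 genes detected. Levels below are CPM, counts scaled to library size by TMM, and differences are log2 fold changes from edgeR with the SE. The 8 adipocyte markers were detected in every group, and their mean level was 11.01 ± 0.19 log2 CPM in tirzepatide, 11.01 ± 0.34 in semaglutide, 11.03 ± 0.21 in diet switch, 11.29 ± 0.12 in HFD and 10.93 ± 0.33 in ND libraries (SD, n = 8 each). The summed level of these markers ran over 15310 to 26210, 12530 to 25830, 16010 to 25760, 20670 to 28190 and 11560 to 23540 CPM in the same order of groups. The mean of 14 skeletal muscle markers was 4.14 ± 2.05 log2 CPM in tirzepatide, 1.81 ± 1.23 in semaglutide, 3.56 ± 2.12 in diet switch, 1.76 ± 1.24 in HFD and 3.69 ± 2.24 in ND libraries, with Mb at 0 in every group but tirzepatide. It lay above 5 in 9 libraries, namely tirzepatide 1, 4, 5 and 7, diet switch 1, 3 and 6, and ND 6 and 8, and their summed muscle markers reached 4981 CPM. The mean of 5 B cell markers lay above 5 in semaglutide 1, 3 and 8 and in ND 5. Diet switch libraries 3, 4 and 7 were also left out together in 1 alternative, since earlier results of these data set them apart. In such bulk tissue, fewer cells of a type and less RNA per cell cannot be told apart.

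The 5 genes did not move as 1 set. Semaglutide and the diet switch went with higher Pck1 than HFD, semaglutide with the lowest group means of Pcx and Gpd1, the diet switch with lower Aqp7 than HFD, and the diet switch with more Pdk4 than ND. Across the 5 groups edgeR's F test called 4 of the 5 genes, where 33.5% of all tested genes were called. Its adjusted p was 6.71e-06 for Pcx, 0.00157 for Gpd1, 0.00209 for Pck1, 0.0102 for Pdk4 and 0.0914 for Aqp7, and Pcx ranked 257 of the 15807 genes.

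**Figure D1:**
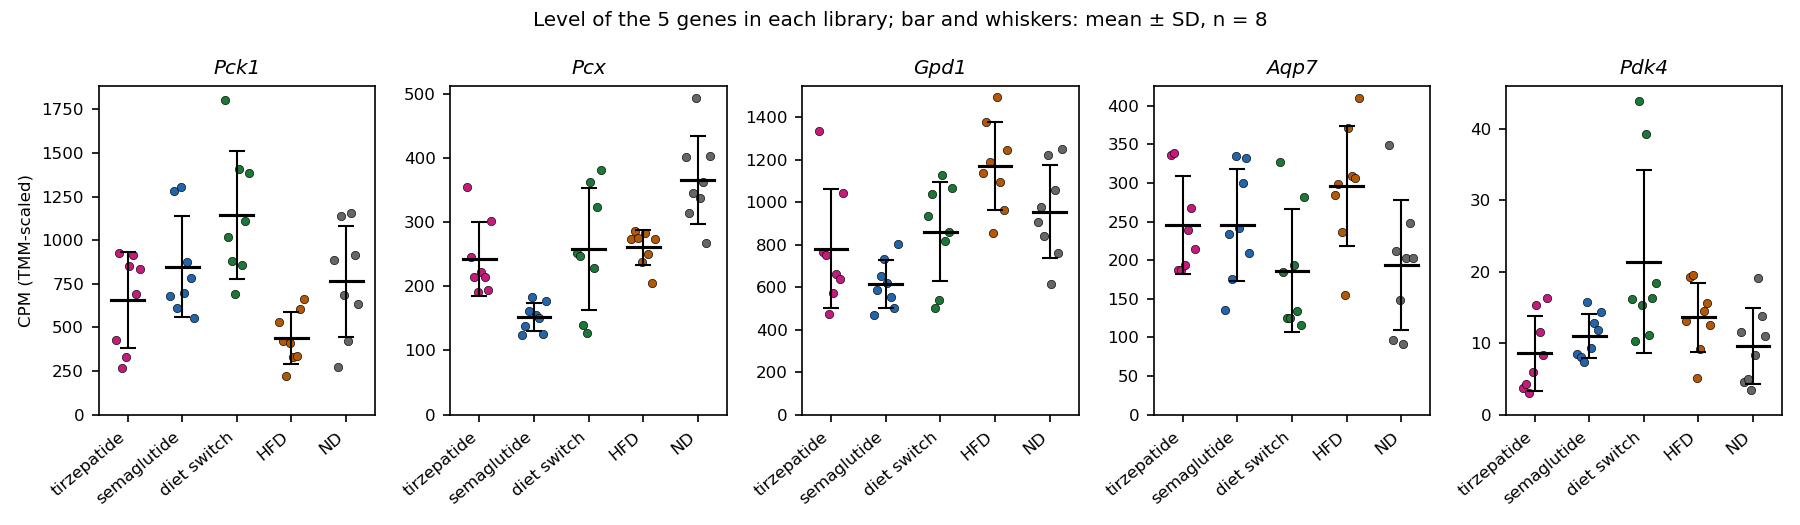
Level of Pck1, Pcx, Gpd1, Aqp7 and Pdk4 (vertical axis, CPM, each panel on its own scale from 0) in 8 libraries of each of 5 groups (points), with the mean and SD (bar and whiskers). Semaglutide libraries lie at 123 to 184 CPM for Pcx, below every tirzepatide, HFD and ND library, and diet switch libraries lie at 690 to 1805 CPM for Pck1, above every HFD library.

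HFD against ND called none of the 5 genes in edgeR at an adjusted p under 0.05, in a comparison in which 2.83% of all tested genes rose and 1.68% fell. At an unadjusted p under 0.05 there were 3 (Pck1, Pcx and Aqp7), and the share of all genes at that level was not counted. DESeq2 called 1 (Pck1), against 914 of all 15807 tested genes, and limma-voom 2 (Pck1 and Pcx), against 1289. Semaglutide against HFD called 3, of which Pck1 rose, against 1.52% of all genes, and Pcx and Gpd1 fell, against 2.63%. Tirzepatide against HFD called Gpd1, which fell, in a comparison where 9.79% of genes rose and 10.7% fell. Diet switch against HFD called 2, with Pck1 higher, against 12.8% of genes, and Aqp7 lower, against 10.9%. These 3 comparisons share the HFD libraries.

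Against ND, semaglutide called 2 genes, Pcx and Gpd1, both lower, where 0.905% of genes rose and 1.73% fell. Tirzepatide against ND called Pcx, which was lower, where 4.3% rose and 5.77% fell. Diet switch against ND called 2, with Pdk4 higher, against 7.97% of genes, and Pcx lower, against 6.82%. All 3 comparisons share the ND libraries. Between treatments, tirzepatide against semaglutide called Pcx, which was higher, where 4.11% of genes rose and 5.92% fell. Semaglutide against diet switch called 2, Pcx and Pdk4, both lower, where 6.29% rose and 7% fell. Tirzepatide against diet switch called none in edgeR, where 0.114% of genes rose and 0.285% fell. There, 2 genes (Pck1 and Pdk4) had an unadjusted p under 0.05, and the share of all genes at that level was not counted. DESeq2 called 1 (Pdk4), against 218 of all 15807 tested genes, and limma-voom 0, against 120.

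**Figure D2:**
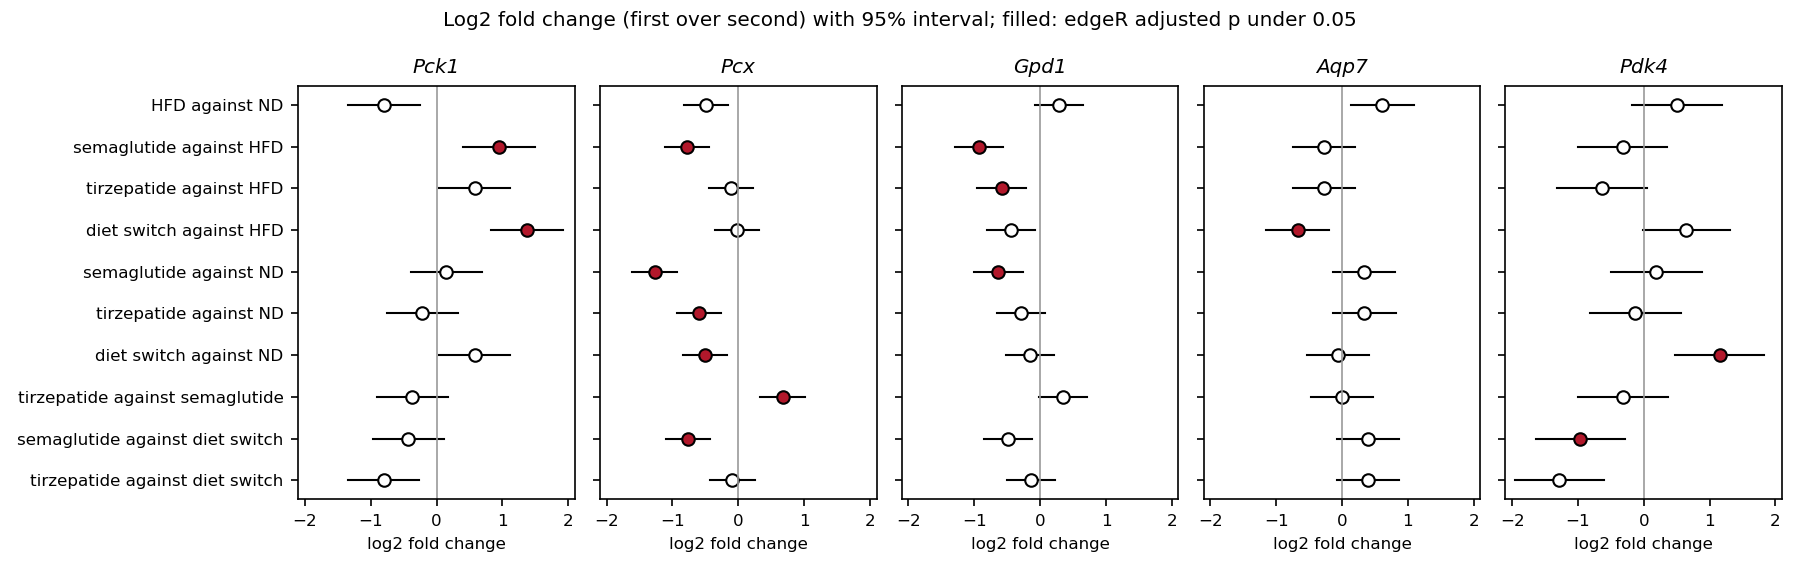
Log2 fold change of each gene (horizontal axis) in 10 comparisons (rows, first group over second), with the 95% interval as a line and the call at an edgeR adjusted p under 0.05 as a filled point. Pcx is filled in 6 of the 10 comparisons and lowest for semaglutide against ND at -1.27, while Pck1 is filled for semaglutide and diet switch against HFD.

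Pck1, the committed step from oxaloacetate, was most abundant after the diet switch and least abundant on HFD. Its lowest, median and highest levels were 690, 1062 and 1805 CPM in diet switch libraries, against 220, 415 and 664 CPM in HFD libraries. The lowest diet switch library thus lay above the highest HFD library. Diet switch over HFD gave a log2 fold change of 1.38 ± 0.27 (SE, n = 8 each), or 2.60-fold, with an adjusted p of 3.02e-04. No library left out and no alternative ended this call.

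With semaglutide Pck1 ran from 554 to 1306 CPM with a median of 741 CPM, so all 8 libraries lay above the HFD median but the ranges overlapped. Its log2 fold change over HFD was 0.95 ± 0.27, or 1.93-fold (adjusted p = 0.0332). That call was lost without any 1 of HFD 2, 3, 4, 5 or 6 or semaglutide 2 or 4, at adjusted p of 0.0535 to 0.0754, and with no filter on low counts, at 0.089. Tirzepatide libraries had 266, 765 and 927 CPM as their lowest, median and highest level. Libraries 1, 3 and 4 of this group lay at 427, 266 and 330 CPM, within the HFD range, and the other 5 lay above it. Tirzepatide over HFD gave 0.58 ± 0.27 (adjusted p = 0.120), and 0.89 (0.00978) with the adipocyte marker level as a covariate.

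HFD libraries all lay below the ND median of 786 CPM for Pck1, whose ND range was 275 to 1155 CPM. The log2 fold change of HFD over ND was -0.80 ± 0.27 (adjusted p = 0.0812). It passed without ND 2 (-0.92, 0.0250) or HFD 8 (-0.91, 0.0499), and with the adipocyte marker level as a covariate (-1.17, 0.00295). Against ND, the diet switch gave 0.58 ± 0.27 (adjusted p = 0.134), semaglutide 0.15 ± 0.27 (0.852) and tirzepatide -0.22 ± 0.27 (0.656). Mean levels of Pck1 were 656 ± 274 CPM with tirzepatide, 848 ± 291 with semaglutide, 1144 ± 366 after the diet switch, 440 ± 150 in HFD and 764 ± 318 in ND (SD, n = 8 each). From high to low the order was diet switch, semaglutide, ND, tirzepatide and HFD, and no pair of neighbours passed the test.

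Pck2, the mitochondrial form of the same enzyme, was not called in any of the 10 comparisons. Its mean level was 15.2 ± 2.4 CPM after the diet switch, 17.2 ± 2.5 with semaglutide and 16.1 ± 3.5 with tirzepatide, against 15.5 ± 4.6 in HFD and 14.6 ± 2.4 in ND libraries (SD, n = 8 each). Its log2 fold change was -0.04 ± 0.17 for diet switch over HFD and 0.14 ± 0.17 for semaglutide over HFD.

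Pcx, which opens the pathway from pyruvate, was lowest with semaglutide. It had 123, 153 and 184 CPM as lowest, median and highest level in semaglutide libraries, against 205, 274 and 287 CPM in HFD and 267, 354 and 494 CPM in ND libraries. No semaglutide library reached the lowest HFD or ND library. Semaglutide gave a log2 fold change of -0.78 ± 0.17 over HFD (adjusted p = 0.00297) and -1.27 ± 0.17 over ND (2.40e-06), which is 0.583 and 0.415 of those levels. Both calls were kept in every alternative and with any 1 library left out.

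Tirzepatide libraries had 191, 218 and 355 CPM of Pcx, all above the highest semaglutide library. Tirzepatide over semaglutide gave a log2 fold change of 0.67 ± 0.17 (adjusted p = 0.00851), the only one of the 5 genes called between the drugs. This call too was kept in every alternative and with any 1 library left out. Against HFD tirzepatide gave -0.11 ± 0.17, with a 95% interval of -0.44 to 0.23 (adjusted p = 0.697).

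After the diet switch Pcx spread widely, with 127 CPM as its lowest and 382 CPM as its highest level. Diet switch 3 and 4 lay at 139 and 127 CPM, and the other 6 libraries at 228 CPM or more. Dixon's test for 1 outlying library uses the gap to its nearest neighbour, so it could not single out such a pair. The difference of diet switch from HFD was -0.02 ± 0.17, with an interval of -0.35 to 0.32. Semaglutide lay below the diet switch by a log2 fold change of -0.76 ± 0.17 (adjusted p = 0.00218), in 8 of 8 libraries set against the diet switch median.

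HFD libraries all lay below the ND median of Pcx, at a log2 fold change of -0.49 ± 0.17 over ND (adjusted p = 0.0848). This passed when only the HFD and ND libraries were fitted (-0.50, adjusted p = 0.0159) and with the adipocyte marker level as a covariate (-0.69, 0.00946). Tirzepatide fell below ND by -0.59 ± 0.17 (adjusted p = 0.0178) and the diet switch by -0.51 ± 0.17 (0.0340). The tirzepatide call was lost without the 9 muscle-high libraries (-0.56, adjusted p = 0.116) and without ND 4 (0.0530). The diet switch call was lost without ND 1, 4 or 8 or diet switch 3, 4 or 6, at adjusted p of 0.0510 to 0.0984. It was also lost without diet switch 3, 4 and 7 (-0.31, 0.339) and without the muscle-high libraries (-0.32, 0.282). The same held with the 2 groups alone (-0.51, 0.0949) and with no filter (-0.51, 0.0510). Mean levels of Pcx were 242 ± 58 CPM with tirzepatide, 152 ± 22 with semaglutide, 258 ± 95 after the diet switch, 261 ± 28 in HFD and 366 ± 68 in ND (SD, n = 8 each). From high to low the order was ND, HFD, diet switch, tirzepatide and semaglutide, and the one pair of neighbours that passed was tirzepatide and semaglutide.

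Gpd1, which makes glycerol 3-phosphate, was lower with either drug than on HFD. Its lowest, median and highest levels were 467, 605 and 802 CPM in semaglutide libraries, against 855, 1162 and 1495 CPM in HFD libraries. The groups did not overlap. The log2 fold change was -0.93 ± 0.18 (adjusted p = 0.00120), and was kept in every alternative and with any 1 library left out. The mean adipocyte marker level was 11.01 log2 CPM with semaglutide, against 11.29 in HFD. With that level as a covariate the call was also kept. Of 7 brown adipocyte markers, 6 were in the table, and none of these was at 0 in any group. Their mean was 2.89 ± 0.62 log2 CPM with semaglutide, 3.62 ± 0.48 with tirzepatide, 3.93 ± 0.52 after the diet switch and 3.60 ± 0.21 in HFD libraries (SD, n = 8 each). Their summed levels ran over 104.5 to 215.9 CPM with semaglutide, 127.7 to 339 with tirzepatide, 201.4 to 555.4 after the diet switch and 166.5 to 277.8 in HFD libraries. Of the 5 tested, 1 fell and 0 rose in each drug group against HFD, with a median log2 fold change of -0.27 for semaglutide and 0.50 for tirzepatide. In diet switch against HFD 2 of these markers rose and 0 fell (median 1.21). With semaglutide against the diet switch 3 of them fell and 0 rose. Within groups their mean had r 0.442 with Gpd1 and 0.38 with Pcx (n = 40, a description), and its part in these differences was not tested.

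Tirzepatide libraries had 473, 707 and 1336 CPM of Gpd1, with 7 of 8 below the HFD median. The log2 fold change over HFD was -0.59 ± 0.18 (adjusted p = 0.0181). It was -0.54 (0.0801) without the muscle-high libraries, -0.39 (0.102) with the adipocyte marker level as a covariate and -0.51 (0.0503) without tirzepatide 4. After the diet switch the levels were 503, 896 and 1130 CPM, all below the HFD median, and the log2 fold change over HFD was -0.44 ± 0.18 (adjusted p = 0.0690). This passed in DESeq2 (-0.45, 0.0496), with the replicate block (-0.46, 0.0494), without the B cell-high libraries (-0.46, 0.0427) and without any 1 of HFD 4, tirzepatide 1 or diet switch 2 or 5, at adjusted p of 0.0428 to 0.0498.

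HFD differed from ND in Gpd1 by 0.29 ± 0.18, with an interval of -0.07 to 0.66 (adjusted p = 0.431), and ND libraries had 616 to 1250 CPM. Semaglutide fell below ND by -0.63 ± 0.18 (adjusted p = 0.0449). That call was lost without the muscle-high libraries (0.102), with no filter (0.0533), and without any 1 of ND 1, 2, 3, 4, 6 or 8, HFD 1, 6 or 8, semaglutide 1, 2, 3, 5, 6 or 7 or tirzepatide 2, at adjusted p of 0.0506 to 0.113. Semaglutide differed from the diet switch by -0.49 ± 0.18 (adjusted p = 0.0655), with 8 of 8 libraries below the diet switch median. This passed in DESeq2 (-0.49, 0.0433), in limma-voom (-0.54, 0.0209), without the muscle-high libraries (-0.61, 0.0306), without diet switch 3, 4 and 7 (-0.70, 0.0400) and without any 1 of tirzepatide 1 or diet switch 3 or 4, at adjusted p of 0.0388 to 0.0474. Tirzepatide over semaglutide was 0.34 ± 0.18, with an interval of -0.02 to 0.71 (adjusted p = 0.226). Mean levels of Gpd1 were 780 ± 280 CPM with tirzepatide, 615 ± 113 with semaglutide, 861 ± 234 after the diet switch, 1170 ± 208 in HFD and 955 ± 220 in ND (SD, n = 8 each). From high to low the order was HFD, ND, diet switch, tirzepatide and semaglutide, with no neighbours that differed past the threshold.

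Gpd1l, a close relative of Gpd1, was not called in any of the 10 comparisons, and its group means lay between 23.6 CPM with semaglutide and 18.9 CPM in HFD. Gpd2, the mitochondrial enzyme that oxidises glycerol 3-phosphate back to dihydroxyacetone phosphate, behaved otherwise. It had 35.9, 49.4 and 68.0 CPM in HFD libraries, against 103, 128 and 167 CPM in ND libraries, without overlap, at a log2 fold change of -1.36 ± 0.15 (adjusted p = 3.63e-08). Tirzepatide libraries had 73.5 to 95.7 CPM and diet switch libraries 75.1 to 184 CPM, all above the highest HFD library. Their log2 fold changes over HFD were 0.68 ± 0.15 (adjusted p = 0.00132) and 1.22 ± 0.15 (3.58e-07). Semaglutide, at 47.5 to 78.2 CPM, differed from HFD by 0.39 ± 0.15 (adjusted p = 0.143). Against ND, Gpd2 fell with semaglutide (-0.98 ± 0.15, adjusted p = 2.76e-05) and tirzepatide (-0.68 ± 0.15, 0.00283), and the diet switch differed by -0.14 ± 0.15 (0.567).

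Aqp7, the glycerol channel, was lower after the diet switch than on HFD. Diet switch libraries had 117, 160 and 327 CPM as lowest, median and highest level, against 155, 303 and 410 CPM in HFD libraries, and 7 of 8 lay below the HFD median. Its log2 fold change was -0.67 ± 0.24, or 0.628 of HFD (adjusted p = 0.0335). This call was lost without HFD 2, 5 or 8 or diet switch 3, 4, 6 or 7, at adjusted p of 0.0516 to 0.0782. It was also lost without diet switch 3, 4 and 7 (-0.40, adjusted p = 0.375), without the muscle-high libraries (-0.71, 0.0705) and with no filter (-0.68, 0.0712). With the adipocyte marker level as a covariate it was lost too (-0.34, 0.225). That marker level was 11.03 log2 CPM after the diet switch, against 11.29 in HFD. The mean of 6 endothelial markers was 6.43 ± 0.27 log2 CPM after the diet switch, 6.69 ± 0.17 in HFD and 6.29 ± 0.29 in ND libraries (SD, n = 8 each), and none was at 0 in any group. Their summed levels ran over 415.9 to 758.7 CPM after the diet switch, 629.9 to 853.1 in HFD and 430.5 to 668 in ND libraries. Of these 6, 1 fell in diet switch against HFD and 2 rose in HFD against ND. Within groups their mean had r 0.488 with Aqp7 (n = 40, a description), and its part in the difference was not tested.

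With tirzepatide Aqp7 had 187, 227 and 338 CPM and with semaglutide 135, 237 and 335 CPM. The log2 fold change over HFD was -0.27 ± 0.23 for each drug (adjusted p = 0.438 for tirzepatide and 0.555 for semaglutide). Between the drugs it was 0.00 ± 0.23, with an interval of -0.47 to 0.47. HFD over ND gave 0.61 ± 0.24 (adjusted p = 0.145), where ND libraries ran from 90.9 to 349 CPM, and it passed without ND 1 (0.79, 0.0437). Mean levels of Aqp7 were 245 ± 63 CPM with tirzepatide, 245 ± 73 with semaglutide, 186 ± 80 after the diet switch, 296 ± 78 in HFD and 194 ± 84 in ND (SD, n = 8 each). HFD was highest, followed by tirzepatide, semaglutide, ND and the diet switch, and no neighbours differed past the threshold.

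Of the other glycerol channels, Aqp3 had 29 counts and Aqp9 127 counts over all 40 libraries and neither was tested. Of the 29 counts of Aqp3, 23 were in semaglutide libraries. Gk, glycerol kinase, which would return glycerol to glycerol 3-phosphate, was low, at 5.41 ± 3.12 CPM with tirzepatide, 6.88 ± 2.67 with semaglutide, 5.47 ± 1.80 after the diet switch, 9.59 ± 4.52 in HFD and 4.85 ± 2.16 in ND libraries (SD, n = 8 each). It was not called in any of the 10 comparisons, with 0.99 ± 0.33 for HFD over ND (adjusted p = 0.0713) and -0.81 ± 0.32 for diet switch over HFD (0.0606).

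Pdk4, the brake on pyruvate oxidation, was the scarcest of the 5 in counts, with 326 counts over 8 tirzepatide libraries, 340 with semaglutide, 643 after the diet switch, 437 in HFD and 272 in ND. After the diet switch it had 10.4, 16.3 and 44.0 CPM as lowest, median and highest level, against 3.47, 9.65 and 19.2 CPM in ND libraries. Diet switch 3 and 5, at 44.0 and 39.3 CPM, stood above the other 6 libraries, which ran from 10.4 to 18.5 CPM. Dixon's test could not single out this pair either. The log2 fold change over ND was 1.15 ± 0.34, or 2.22-fold, with 8 of 8 libraries above the ND median (adjusted p = 0.0178). It was 0.91 (0.0750) without diet switch 3, and 0.98 (0.186) without diet switch 3, 4 and 7.

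Semaglutide libraries had 7.44, 10.6 and 15.8 CPM of Pdk4 and lay below the diet switch at -0.96 ± 0.33 (adjusted p = 0.0469). That call was lost without any 1 of 19 libraries, which were ND 1 and 8, HFD 1, 6, 7 and 8, semaglutide 1, 2, 3, 5, 6, 7 and 8, tirzepatide 7 and diet switch 3, 4, 5, 7 and 8, at adjusted p of 0.0503 to 0.160, without the 4 B cell-high libraries (-0.89, 0.165), without the muscle-high libraries (-0.87, 0.101), without diet switch 3, 4 and 7 (-0.79, 0.262), with no filter (-0.95, 0.0865), with the replicate block (-0.91, 0.0623) and in limma-voom (-0.70, 0.103). Tirzepatide libraries had 3.01, 7.11 and 16.3 CPM and differed from the diet switch by -1.28 ± 0.34 (adjusted p = 0.0700), which passed in DESeq2 (-1.30, 0.0157), with the adipocyte marker covariate (-1.29, 0.0454) and without tirzepatide 5 (-1.44, 0.0291), tirzepatide 8 (-1.49, 0.0162) or diet switch 2 (-1.38, 0.0347). Over HFD the log2 fold change was -0.64 ± 0.34 for tirzepatide (adjusted p = 0.181), -0.32 ± 0.33 for semaglutide (0.651) and 0.64 ± 0.33 for the diet switch (0.151), with HFD libraries at 5.11 to 19.6 CPM. Mean levels of Pdk4 were 8.57 ± 5.27 CPM with tirzepatide, 11.0 ± 3.1 with semaglutide, 21.4 ± 12.8 after the diet switch, 13.6 ± 4.9 in HFD and 9.61 ± 5.35 in ND (SD, n = 8 each). The diet switch was highest, followed by HFD, semaglutide, ND and tirzepatide, and no neighbours differed past the threshold.

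The other pyruvate dehydrogenase kinases had patterns of their own. Pdk2 had 50.9, 75.3 and 143 CPM in tirzepatide libraries, against 34.9, 39.9 and 55.4 CPM in HFD libraries. It rose by 0.98 ± 0.17 over HFD (adjusted p = 5.47e-05), 0.72 ± 0.17 over ND (0.00507) and 0.78 ± 0.17 over semaglutide (0.00305). Tirzepatide 1, 4, 5 and 7 were muscle-high, while no HFD or semaglutide library was. Whether Pdk2 kept these calls without the muscle-high libraries was not tested. Pdk1 rose after the diet switch, at 20.5 ± 7.6 CPM against 12.49 ± 4.35 in HFD (log2 fold change 0.71 ± 0.25, adjusted p = 0.0335). Pdk3 fell with tirzepatide, at 4.85 ± 1.96 CPM against 8.98 ± 2.76 in ND (-0.89 ± 0.30, adjusted p = 0.0458).

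Ratios of 2 genes within a library, given as log2 values and without a test, show how the balance of the enzymes differed between groups. The Pck1 to Gpd1 ratio was -0.32 ± 0.86 with tirzepatide, 0.42 ± 0.54 with semaglutide and 0.40 ± 0.33 after the diet switch, against -1.47 ± 0.63 in HFD and -0.42 ± 0.77 in ND libraries (SD, n = 8 each). Every semaglutide and diet switch library, at -0.535 or more and -0.034 or more, lay above the highest HFD library at -0.676. The Gpd1 to Pcx ratio was tighter, at 1.65 ± 0.21 with tirzepatide, 2.01 ± 0.10 with semaglutide and 1.78 ± 0.25 after the diet switch, against 2.15 ± 0.17 in HFD and 1.37 ± 0.27 in ND. HFD libraries, at 1.84 to 2.40, all lay above the highest ND library at 1.64.

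Apart from the groups, Pcx and Gpd1 rose and fell together from library to library. After the group mean was taken from each log2 CPM, Pearson's r over the 40 libraries was 0.832 and Spearman's rho 0.856 (permutation test within groups, adjusted p = 0.0001 over the 10 pairs of genes, the smallest the 100000 resamples can give after adjustment). Without diet switch 3 and 4, the libraries farthest from the median of Pcx on this scale, r was 0.78. Pck1 and Aqp7 also varied together, with r 0.588 and rho 0.573 (permutation adjusted p = 0.00085 and 0.0016), and r 0.53 without ND 2 and tirzepatide 3. Gpd1 and Aqp7 had r 0.427 and rho 0.375 (permutation adjusted p = 0.0283 and 0.0822), r 0.362 without tirzepatide 1 and diet switch 3, and r 0.334 without the muscle-high libraries, where the call was lost. The other 7 pairs did not pass; Pck1 with Gpd1, for example, had r 0.135 and rho 0.095 (permutation adjusted p = 0.567 and 0.728). The adipocyte marker level also followed these genes within groups, with r 0.625 for Aqp7, 0.538 for Pck1, 0.513 for Gpd1, 0.404 for Pcx and 0.23 for Pdk4 (n = 40, a description), and its part in the pairs was not tested. The muscle marker level had r between -0.16 for Gpd1 and 0.165 for Pck1. For the B cell marker level r was -0.474 with Aqp7, -0.376 with Pck1, -0.134 with Gpd1, -0.106 with Pdk4 and -0.03 with Pcx. For 6 macrophage markers r was -0.422 with Pdk4, and between -0.127 with Pck1 and 0.156 with Aqp7 for the others. The endothelial markers had r -0.352 with Pcx, -0.165 with Gpd1, 0.075 with Pck1 and 0.167 with Pdk4. Of 5 liver markers only 2 were tested, and their highest group mean was 1.37 log2 CPM, in ND. Their r was 0.427 with Pck1, 0.335 with Pcx, 0.279 with Gpd1, 0.168 with Aqp7 and 0.073 with Pdk4. The part of these cells and markers was not tested.

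**Figure D3:**
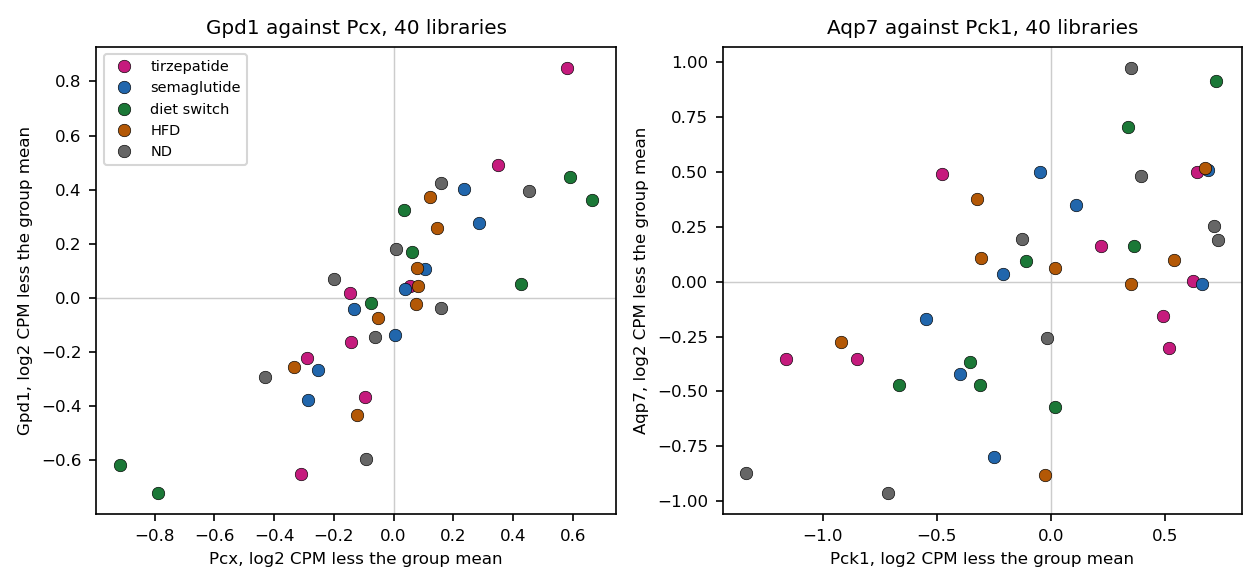
Log2 CPM less the group mean of Gpd1 against Pcx (left) and of Aqp7 against Pck1 (right), 1 point per library, 40 libraries coloured by group. The Pcx and Gpd1 points lie along 1 line (r 0.832), with diet switch 3 and 4 lowest for Pcx, and the Pck1 and Aqp7 points scatter more (r 0.588).

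Genes with the pattern most like each of the 5 were sought among the 7266 genes averaging 4 log2 CPM or more, by Pearson's r over 40 libraries. Libraries of 1 group share their treatment, so these values are descriptions. Most like Pcx were Apoc1 (0.884), an apolipoprotein, Fasn (0.83), fatty acid synthase, and Eno1b (0.821). Less the group means they were Gpd1 (0.832), Me1 (0.831), malic enzyme, and Acss2 (0.828), acetyl-CoA synthetase. Most like Gpd1 were Pex16 (0.869), a peroxisome assembly protein, Slc25a1 (0.852), the mitochondrial citrate carrier, and Gpt (0.843), alanine aminotransferase, and less the group means Pex16 (0.849), Slc25a10 (0.845), the dicarboxylate carrier, and Pcx (0.832).

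Pck1 was most like Sqor (0.78), sulfide quinone oxidoreductase, Mettl7a1 (0.755) and Atosa (0.747), and less the group means Ces1d (0.809), a triglyceride hydrolase, C1s1 (0.775) and Nadk (0.765), NAD kinase. Aqp7 was most like Pcdh1 (0.76), a protocadherin, Epn2 (0.718) and Hspg2 (0.708), perlecan. Less the group means it was most like Pcdh1 (0.74), Ecm2 (0.74) and Lipe (0.725), hormone-sensitive lipase, which is 1 of the 8 adipocyte markers. For Pdk4 they were Sppl2a (0.75), Etfa (0.732), an electron transfer flavoprotein, and Tmcc3 (0.725), and less the group means Tmcc3 (0.711), Crls1 (0.697), cardiolipin synthase, and Sppl2a (0.69).

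Of a list of 27 genes of glycerol 3-phosphate supply, 20 of those tested are not among the 5. In HFD against ND, 0 of these 20 rose and 1, Gpd2, fell, with a median log2 fold change of 0.01, against -0.04 over all tested genes. In semaglutide against HFD 0 rose and 4 fell (median -0.19, against 0.05 over all genes). Those with the smallest adjusted p were Aldoa (-0.76 ± 0.19, 0.0111), the glycolytic aldolase, Tpi1 (-0.70 ± 0.18, 0.0168), triose phosphate isomerase, and Slc25a10 (-0.80 ± 0.21, 0.0205). In tirzepatide against HFD 2 rose and 3 fell (median -0.18, against 0.03), and besides Gpd2 these included Tpi1 (-0.74 ± 0.18, 0.00293) and Aqp11 (0.84 ± 0.24, 0.00883), an intracellular aquaporin. In diet switch against HFD 2 rose and 2 fell (median -0.10, against 0.03), the pair that fell being Tpi1 (-0.59 ± 0.18, 0.0143) and Slc25a10 (-0.64 ± 0.21, 0.0250). Over all tested genes, 2.83% rose and 1.68% fell in HFD against ND. The shares against HFD were 1.52% and 2.63% with semaglutide, 9.79% and 10.7% with tirzepatide and 12.8% and 10.9% after the diet switch.

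Against ND, 5 of the 20 fell with semaglutide and 0 rose (median -0.20, against 0.03 over all genes), led by Gpd2, Eno1 (-0.83 ± 0.15, 4.27e-04), enolase, and Aldoa (-0.94 ± 0.19, 0.00120). With tirzepatide 3 fell and 0 rose (median -0.24, against 0.00), which were Eno1 (-0.80 ± 0.15, 5.23e-04), Gpd2 and Gapdh (-0.79 ± 0.18, 0.00391). After the diet switch 1 fell, Slc25a10 (-0.63 ± 0.21, 0.0377), and 0 rose (median -0.15, against 0.00). Over all tested genes, 0.905% rose and 1.73% fell with semaglutide, 4.3% and 5.77% with tirzepatide and 7.97% and 6.82% after the diet switch.

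In the list of 26 genes of pyruvate use, all were tested and 24 are not among the 5. In HFD against ND 0 rose and 3 fell (median -0.21, against -0.04 over all genes). These were Pdhb (-0.72 ± 0.17, adjusted p = 0.00516) and Pdha1 (-0.61 ± 0.18, 0.0292), both subunits of the pyruvate dehydrogenase E1 enzyme, and Gpt2 (-0.60 ± 0.18, 0.0358), mitochondrial alanine aminotransferase. In semaglutide against HFD 0 rose and 4 fell (median -0.18, against 0.05), led by Gpt (-0.92 ± 0.16, 1.62e-04), Me1 (-1.14 ± 0.23, 0.00164) and Slc16a1 (-0.92 ± 0.22, 0.00919), the monocarboxylate transporter MCT1. In tirzepatide against HFD 3 rose and 7 fell (median -0.22, against 0.03). Ldha, lactate dehydrogenase A, fell (-0.91 ± 0.15, 2.57e-05), as did Mpc2 (-1.60 ± 0.27, 4.32e-05), a subunit of the mitochondrial pyruvate carrier, while Pdk2 rose. In diet switch against HFD 4 rose and 2 fell (median 0.12, against 0.03), with Slc16a7 (1.30 ± 0.26, 3.16e-04), another monocarboxylate transporter, and Pdha1 (0.82 ± 0.17, 6.32e-04) higher and Gpt (-0.62 ± 0.16, 0.00287) lower. Over all tested genes, 2.83% rose and 1.68% fell in HFD against ND. The shares against HFD were 1.52% and 2.63% with semaglutide, 9.79% and 10.7% with tirzepatide and 12.8% and 10.9% after the diet switch.

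Against ND, 0 of the 24 rose and 6 fell with semaglutide (median -0.40, against 0.03 over all genes), led by Me1 (-1.36 ± 0.23, adjusted p = 1.24e-04), Ldha (-0.83 ± 0.15, 3.17e-04) and Gpt (-0.83 ± 0.16, 5.13e-04). With tirzepatide 2 rose and 9 fell (median -0.43, against 0.00), led by Ldha (-1.24 ± 0.15, 4.24e-07), Me1 (-1.51 ± 0.23, 2.88e-05) and Mpc2 (-1.33 ± 0.27, 0.00128). After the diet switch 0 rose and 2 fell (median -0.10, against 0.00), Gpt (-0.54 ± 0.16, 0.0155) and Pkm (-0.72 ± 0.21, 0.0198), pyruvate kinase. Over all tested genes, 0.905% rose and 1.73% fell with semaglutide, 4.3% and 5.77% with tirzepatide and 7.97% and 6.82% after the diet switch.

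Among 20 genes known to regulate the 5, HFD against ND lowered 1 and raised 0, that 1 being Hsd11b1 (-1.49 ± 0.18, adjusted p = 1.03e-07), which regenerates active glucocorticoid. Semaglutide against HFD raised 1, again Hsd11b1 (0.68 ± 0.18, 0.0174), and lowered 0. Tirzepatide against HFD raised 4 and lowered 3, led by Ppara (1.37 ± 0.28, 4.55e-04), a fatty acid receptor, Ppargc1a (1.26 ± 0.28, 0.00134), its coactivator, and Creb1 (0.75 ± 0.18, 0.00196), the cAMP response factor. Whether genes of the 3 lists other than the 5 kept their calls without the muscle-high libraries was not tested. Those libraries include tirzepatide 1, 4, 5 and 7 and none from HFD. Diet switch against HFD raised 4 and lowered 0, led by Hsd11b1 (1.01 ± 0.18, 5.59e-05), Creb1 (0.88 ± 0.18, 3.12e-04) and Nr3c1 (0.55 ± 0.14, 0.00387), the glucocorticoid receptor. The medians of this list were -0.09, 0.03, 0.18 and 0.21 in these 4 comparisons, against -0.04, 0.05, 0.03 and 0.03 over all tested genes. In the same order, 2.83%, 1.52%, 9.79% and 12.8% of all tested genes rose and 1.68%, 2.63%, 10.7% and 10.9% fell. Against ND, 0.905% of all tested genes rose and 1.73% fell with semaglutide, 4.3% and 5.77% with tirzepatide and 7.97% and 6.82% after the diet switch. Against ND, semaglutide lowered Hsd11b1 (-0.81 ± 0.18, 0.00381) and Ppard (-0.64 ± 0.17, 0.0325) and raised 0, tirzepatide lowered Hsd11b1 (-1.25 ± 0.18, 6.74e-06) and raised Ppara (1.03 ± 0.28, 0.0144), and the diet switch raised Creb1 (0.58 ± 0.18, 0.0206) and lowered 0.

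**Figure D4:**
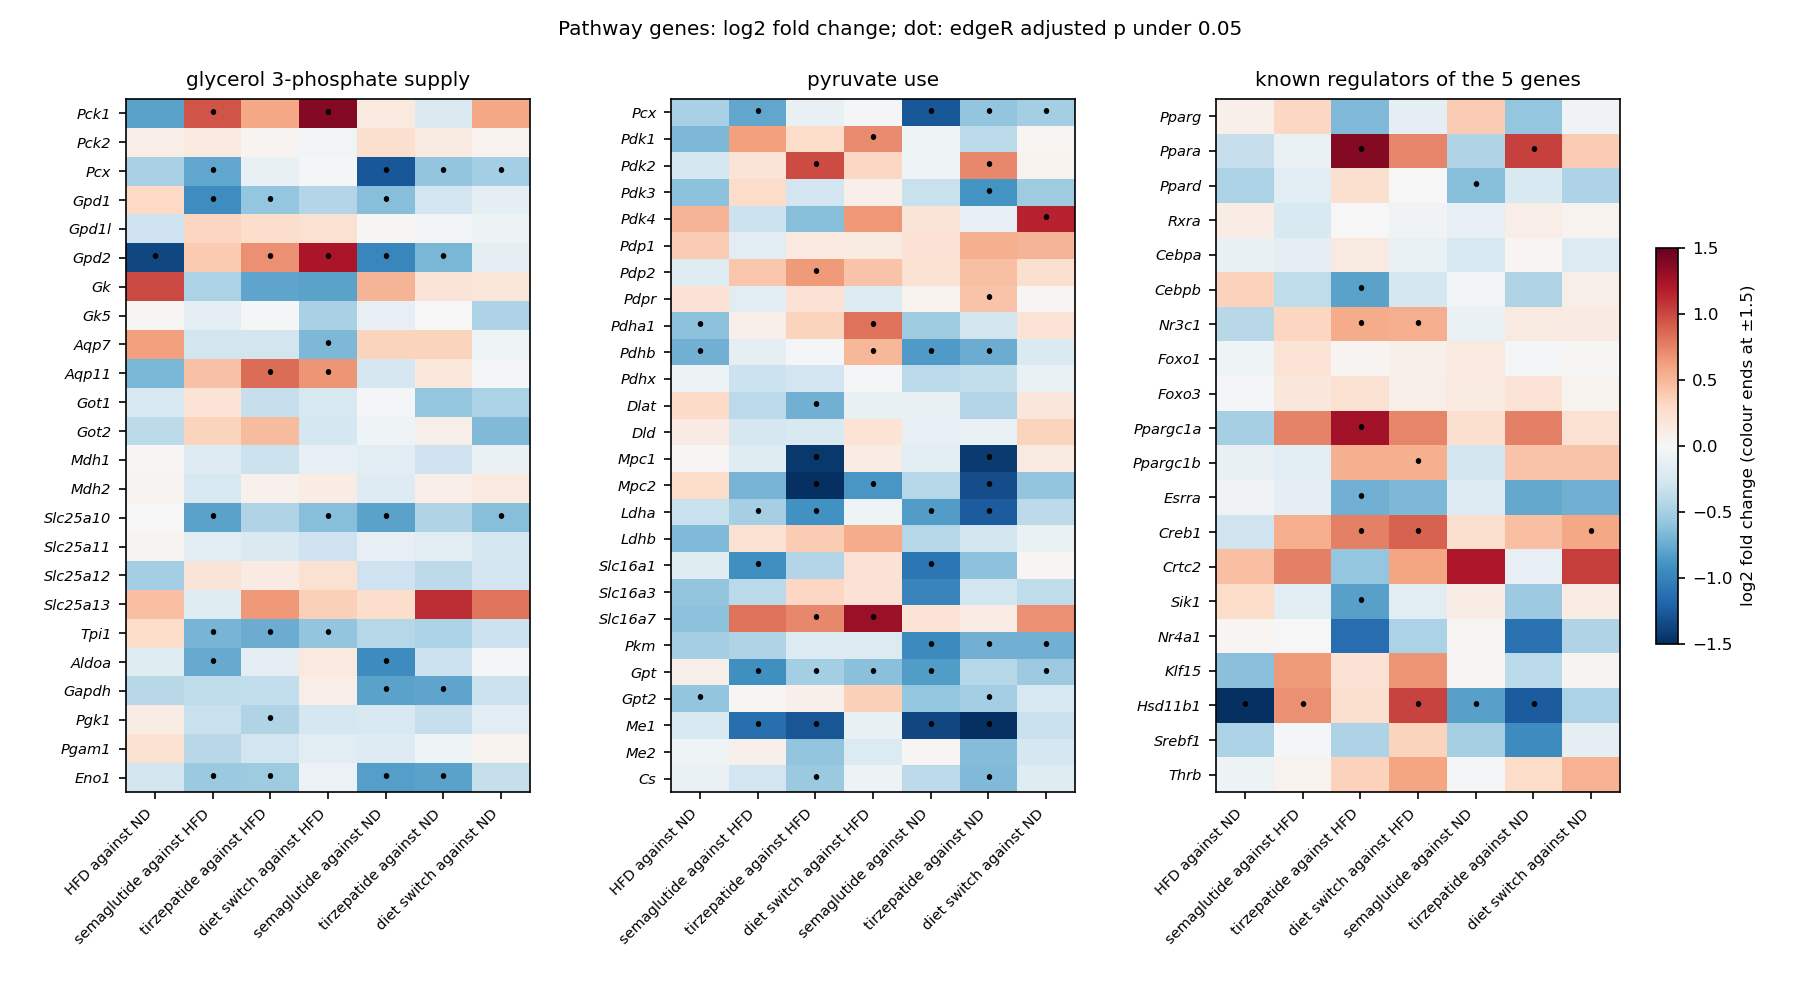
Log2 fold change (colour, red higher and blue lower in the first group) of the tested genes of 3 lists (rows) in 7 comparisons against HFD or ND (columns), with a dot at an edgeR adjusted p under 0.05. Gpd2 is dotted in 5 of the 7 columns, at -1.36 for HFD against ND and 1.22 for diet switch against HFD, while Pck2 and Gpd1l carry no dot.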

How the data were processed

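Counts per gene symbol were deposited by the authors, from RNA extracted with Nucleozol, Lexogen QuantSeq libraries (which read transcript 3′ ends) and an Illumina HiSeq, per the labels' protocols. The genome build was mm10, per the submitters' processing notes. Aligner, counter and annotation: not given in the sources used here. A deposited table of normalized signal equals the counts divided by 1 factor per library (largest relative spread 1.15e-09), so it was not used, nor were its 16 columns that match no sample.

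Counts of the 40 libraries were scaled by TMM and fitted in 1 quasi-likelihood model (edgeR 4.0.16 in R 4.3.3, robust, filterByExpr, 15807 genes holding 99.39% of counts). p-values were Benjamini-Hochberg adjusted over all tested genes and called under 0.05. The SE is the log2 fold change over the root of F. Log2 CPM used a prior count of 2. The procedure was tested on simulated data. No libraries of a group were copies (lowest chi-square per degree of freedom 4.207). Depth sets the precision of Pdk4 most, whose counts are given. Named genes were the 5, their paralogs, up to 3 called genes with the smallest adjusted p per list and comparison, and the 3 most alike. The members and lists were chosen with earlier results of these data known. Alternatives were DESeq2 1.42.0, its size factors, other filters, limma-voom (limma 3.58.1), the compared groups alone, the replicate number as a block, sets of libraries and each library left out, and an adipocyte covariate.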

Additional observations from a re-analysis of the deposited data

How the results depend on the processing

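Over 2550 alternative values of the 5 genes' log2 fold changes, 2406 kept their direction and their side of the threshold, 79 no longer passed, 30 newly passed and 35 changed sign. None of those 35 passed in either fit. With the adipocyte covariate Aqp7 was 0.0706 for semaglutide and 0.11 for tirzepatide against HFD, and Pcx 0.0370 for tirzepatide and 0.10 for diet switch against HFD. Pcx in diet switch against HFD was also 0.0304 in limma-voom, 0.15 without the muscle-high libraries, 0.17 without diet switch 3, 4 and 7 and -0.12 to 0.0841 with single libraries left out. Without the muscle-high libraries, Pck1 was 0.0327 and Pdk4 0.20 for tirzepatide against ND (Pdk4 -0.34 to 0.0854 with single libraries left out), and Gpd1 0.0578 for diet switch against ND. Without diet switch 3, 4 and 7, Gpd1 was 0.0644 and Aqp7 0.21 for diet switch against ND (Aqp7 -0.22 to 0.12 with single libraries left out). Aqp7 for tirzepatide against semaglutide was -0.0513 with the replicate block, -0.11 in limma-voom, -0.0037 with the 2 groups alone, -0.23 without the B cell-high libraries and -0.0890 to 0.0782 with single libraries left out. Pcx for tirzepatide against diet switch ran over -0.19 to 0.0139 with single libraries left out. Without the muscle-high libraries Pdk4 had r 0.184 with Pcx and 0.143 with Gpd1, against -0.042 and -0.067 in all libraries. The adipocyte marker covariate was chosen after seeing the data. The number of the 5 genes called in HFD against ND was 0, and became 1 with DESeq2, 2 with limma-voom, 1 with the 2 groups alone, 1 without diet switch 3, 4 and 7, and 2 with the adipocyte covariate, and 0 to 1 with single libraries left out. Tirzepatide against HFD called 1, or 0 without the muscle-high libraries (0 to 1 with single libraries left out). Diet switch against HFD called 2, or 1 with no filter, without the muscle-high libraries, without diet switch 3, 4 and 7, or with the covariate, and 3 with DESeq2, the replicate block or without the B cell-high libraries (1 to 3). Semaglutide against HFD called 3 (2 to 3). Semaglutide against ND called 2, or 1 with no filter or without the muscle-high libraries (1 to 2), and tirzepatide against ND 1, or 0 without the muscle-high libraries (0 to 1). Diet switch against ND called 2, or 1 with no filter, the 2 groups alone or without the muscle-high libraries, and 0 without diet switch 3, 4 and 7 (0 to 2). Semaglutide against diet switch called 2, or 1 with no filter or without the B cell-high libraries, and 3 with DESeq2 (1 to 3). Tirzepatide against diet switch called 0, or 1 with DESeq2 or the covariate (0 to 1), tirzepatide against semaglutide 1 (1 to 1), and the test over 5 groups 4 (3 to 5). The cause of these changes was not tested. With replicate number as a block, semaglutide against diet switch called 1, since Pdk4 was -0.91 (adjusted p = 0.0623), and Gpd1 passed in diet switch against HFD (-0.46, 0.0494). The numbers were not taken to pair the samples, since same-numbered libraries correlated at -0.349 to 0.259. As a hint from the data only, 11 of 40 libraries correlated best with one of their own number, where the share of same-numbered libraries in the other groups, 4 of 32, would give 5. Over all tested genes, limma-voom called 1289 against 712 in edgeR for HFD against ND, 1263 against 656 for semaglutide against HFD, 952 against 417 for semaglutide against ND and 2451 against 1591 for tirzepatide against ND. The 2 groups alone called 1013 for semaglutide against HFD, 1470 against 2338 for diet switch against ND and 1213 against 2101 for semaglutide against diet switch. No filter called 267 for semaglutide against ND. Without the muscle-high libraries the counts were 1777 against 3246 for tirzepatide against HFD, 569 for tirzepatide against ND and 433 against 1584 for tirzepatide against semaglutide. Without the B cell-high libraries they were 412 for semaglutide against HFD, 959 for tirzepatide against semaglutide and 1230 for semaglutide against diet switch. Without diet switch 3, 4 and 7 they were 1148 against 3759 for diet switch against HFD, 112 for diet switch against ND and 276 for semaglutide against diet switch. The covariate gave 369 for semaglutide against HFD and 629 for semaglutide against ND. Tirzepatide against diet switch called 63, and 1 with the 2 groups alone and 347 without diet switch 3, 4 and 7 (218 with DESeq2, 99 with the block, 120 with limma-voom, 7 and 123 without the muscle-high and B cell-high libraries, 129 with the covariate). Single libraries also moved these counts by over 1.5 times. Tirzepatide against diet switch called 35 without tirzepatide 3, 135 without tirzepatide 5, 357 without tirzepatide 8 and 133 without diet switch 2. Semaglutide against HFD called 437 without HFD 5. Semaglutide against ND called 272 without semaglutide 3, and 264, 256 and 853 without ND 1, 4 and 5 in that order. Tirzepatide against ND called 1054 without tirzepatide 4 and 1046 without ND 4. Diet switch against ND called 1321 and 1475 without diet switch 3 and 4 in that order, and 1543 without ND 4. Semaglutide against diet switch called 1367 and 1371 without diet switch 3 and 7 in that order. Dixon's test, which a pair can mask, found no outlier in 25 sets of 8. Pdk4 counts limit what its comparisons show.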
